A study of Mus musculus with 12 samples.

Results

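The genes described here are the neurotrophins and their receptors, with companions that neurons make in an activity-dependent way. Members were taken from the count table by symbol. They were the ligands Bdnf and Ntf3, the receptors Ntrk2, Ntrk3, Ngfr and Sort1, and the secreted or surface products Vgf and Nrn1, which made 8 of 25239 genes. RNA came from brain and liver of male wild-type (WT) C57BL/6J mice, and every animal was killed 16 days past the age of 24 months. The heat stress mice had been kept at 40 °C and 60% humidity for 3 hours a day over 15 days. Control mice were of the same strain, sex, genotype and age and carried no heat exposure in their labels. Each tissue had 3 control and 3 heat stress libraries, 12 in all, and the labels do not say whether the brain and the liver library of the same number came from the same mouse. The question put to the data was whether periodic heat exposure went with a different level of these transcripts in aged brain, with liver as the reference tissue.

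Neurotrophins are growth factors that are made as longer precursors and cut to their mature form. Mature ligands act through the Trk receptor kinases, which favour survival, branching and stronger synapses, whereas precursors act through the p75 receptor together with sortilin and can favour cell death or weaker synapses. In the adult brain Bdnf is made mainly by excitatory neurons of cortex and hippocampus, and part of its promoters respond to neuronal activity.

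Bdnf lies on the plus strand at chr2:109674700-109727007 of mm10 and uses several alternative first exons, so a count for the gene sums over all its starts. RefSeq windows that run from 250 bases before to 50 bases after a transcription start (GRCm38.p6, the same assembly) matched 4 of the 8 members, with 7 windows for Bdnf, 2 for Ntf3 and 1 each for Ntrk2 and Ngfr. Ntrk3, Sort1, Vgf and Nrn1 had no window in the table. The core of the cAMP response element, the site of the activity-regulated factor CREB, was searched as TGACG and its complement CGTCA. It was found in 1 of the 11 windows, against 20.8% of all 32851 windows. This was the third Bdnf window, at the activity-responsive start commonly called promoter IV, and its sequence is printed because the regulators of Bdnf transcription are described further on. The core stands in capitals and begins at position 216 of the 300 bases, chr2:109692186-109692485 on the plus strand.
Bdnf, window 3: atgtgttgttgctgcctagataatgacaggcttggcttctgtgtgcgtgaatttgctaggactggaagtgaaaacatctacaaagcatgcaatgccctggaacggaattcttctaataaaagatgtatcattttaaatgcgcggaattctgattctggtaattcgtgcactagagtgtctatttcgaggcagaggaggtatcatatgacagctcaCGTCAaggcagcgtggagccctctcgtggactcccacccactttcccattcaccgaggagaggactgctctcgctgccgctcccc
The complete palindrome, written TGACGTCA and holding both forms of the core, was in none of the 11 windows and in 1.79% of all windows. The SP1 box, GGGCGG or its complement CCGCCC, was in 6 of the 11 windows, with 4 copies in that of Ngfr, against 35.7% of all windows. The TATA box, TATAAA or its complement TTTATA, was in none of them and in 13.6% of all. These matches describe letters in a window and do not show that a factor was bound.

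The authors' values are reads counted per gene. Brain totals lay between 11889432 and 14597197 in control and between 10552686 and 11147095 after heat stress, and liver totals between 10466198 and 15609040. Levels are given as TMM-normalized counts per library total (CPM), and differences as log2 fold changes of heat stress over control with the standard error and p of edgeR's quasi-likelihood test. In brain, no gene of 14806 tested reached an adjusted p under 0.05 with this test, so the share called was 0%. At an unadjusted p under 0.05, 2969 genes or 20.1% were called, with 10.0% higher and 10.0% lower. DESeq2 gave an adjusted p under 0.05 to 604 of the 7987 genes for which it returned one, or 7.56%. An exact permutation test of 3 against 3 libraries cannot give a p below 0.1. The methods give 3 animals a group. The edgeR p-values set the difference between groups against the spread between these libraries, estimated with information from all genes tested.

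Vgf was the member with the largest difference in brain, and its level after heat stress was 43.9% lower. Its normalized counts were 253, 140 and 171 in the control brains and 105, 91.9 and 120 in the heat stress brains. The lowest control library stood above the highest heat stress library, so the groups did not overlap, and control replicate 1 stood well above the other controls. The means were 188 ± 58.1 (SD, n = 3) and 106 ± 14.0 (SD, n = 3). The log2 fold change was -0.83 with a standard error of 0.21 and a 95% interval from -1.30 to -0.37. The unadjusted p was 0.00287 and the adjusted p 0.170 with edgeR, and the adjusted p was 0.0113 with DESeq2 on the same libraries. Over all alternatives tried the adjusted p of Vgf ranged from 0.0113 to 0.541, and DESeq2 on the brain libraries was the only setting that put it under 0.05. Vgf encodes a secreted precursor of neuropeptides that neurons make upon BDNF signalling and synaptic activity. It lies on the plus strand at chr5:137026392-137033351. Without control replicate 1 its log2 fold change was -0.56, and without control replicate 2 it was -1.01, and the unadjusted p stayed under 0.05 in all 6 fits that left out a library.

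**Figure D1:**
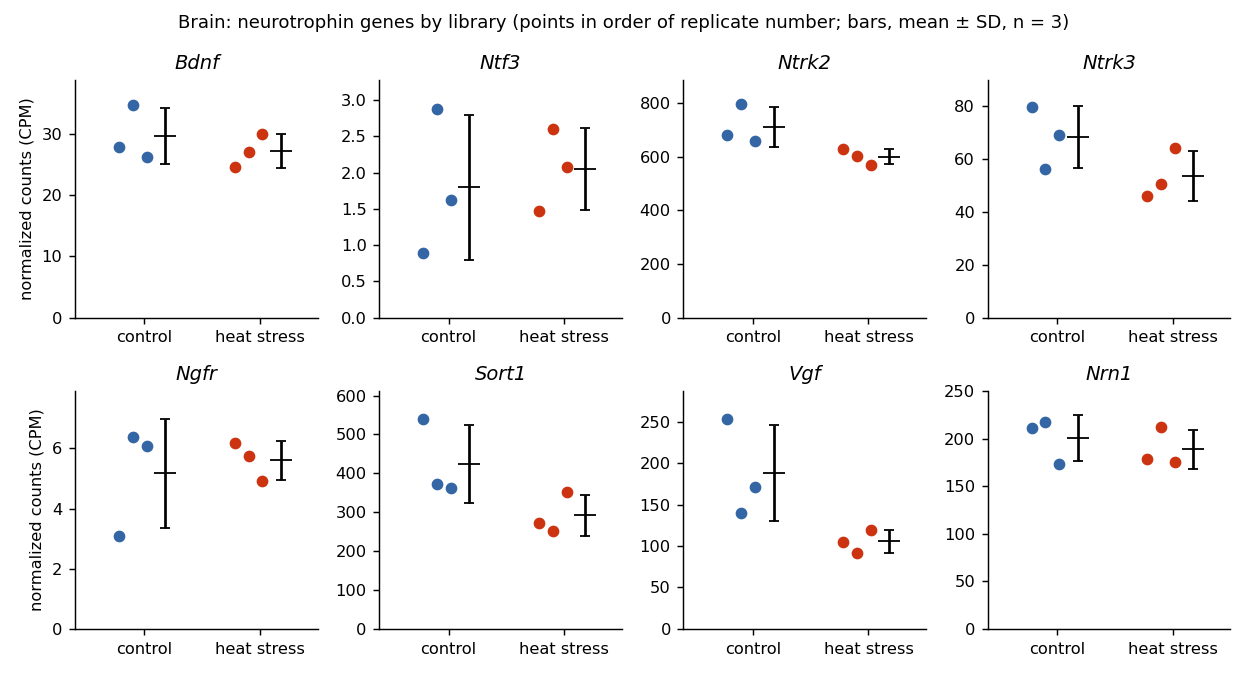
Normalized counts (CPM, linear axes from 0) of the 8 genes in each of the 3 control (blue) and 3 heat stress (red) brain libraries, with mean ± SD beside the points. Vgf, Sort1 and Ntrk2 have every heat stress point below every control point, and the points of the other 5 genes overlap.

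Sort1, which encodes sortilin, the co-receptor of p75 for neurotrophin precursors and a sorting receptor for BDNF, was also lower in every heat stress brain. Control libraries had 541, 372 and 361 normalized counts and heat stress libraries 272, 252 and 351. The gap between the groups was narrow, since control replicate 3 and heat stress replicate 3 were close, and control replicate 1 was again the highest. The log2 fold change was -0.54 (standard error 0.19, 95% interval -0.98 to -0.10), with an unadjusted p of 0.0204 and an adjusted p of 0.191 by edgeR. It ranged from -0.33 without control replicate 1 to -0.70 without heat stress replicate 3, and 3 of the 6 fits that left out a library had an unadjusted p under 0.05. Sort1 is on the plus strand at chr3:108284082-108361511, where the antisense gene Gm12523 shares 338 exon bases with it.

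Ntrk2 encodes TrkB, the receptor of BDNF, and was the member with the most counts in brain. The control libraries had 679, 795 and 658 normalized counts, and the heat stress libraries 628, 601 and 570. Heat stress values all lay below the control values, with a mean of 600 ± 28.9 against 710 ± 73.5 (SD, n = 3 each), 15.6% lower. This difference did not pass the test, with a log2 fold change of -0.24, a standard error of 0.13, a 95% interval from -0.55 to 0.06 and adjusted p = 0.330 by edgeR. Without control replicate 2 it was -0.16, and with each library corrected for transcript length and GC content it was -0.03. Neurons make the full-length kinase from Ntrk2 (chr13:58806569-59133970, plus strand) and astrocytes mainly a truncated form, and a count per gene does not separate them.

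Ntrk3 encodes TrkC, the receptor of neurotrophin-3. Its normalized counts were 79.4, 56.2 and 69.0 in control and 45.8, 50.6 and 63.8 after heat stress. Heat stress replicate 3 lay above control replicate 2, so the groups overlapped. Its log2 fold change was -0.35 (standard error 0.16, unadjusted p = 0.0584, adjusted p = 0.263 by edgeR), and it ran from -0.23 without control replicate 1 to -0.50 without heat stress replicate 3. Ntrk3 is on the minus strand at chr7:78175959-78738012. Ngfr encodes the p75 receptor and is on the minus strand at chr11:95568818-95587735. It had 45, 73 and 75 raw counts in control brain and 67, 64 and 52 after heat stress, and control replicate 1 was the lowest of all. Its log2 fold change was 0.13 with a standard error of 0.29, and without control replicate 1 it was -0.15, so these data give it no direction.

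The ligands overlapped between the groups. Bdnf had 27.8, 34.7 and 26.1 normalized counts in control and 24.5, 27.0 and 29.9 after heat stress. Control replicate 2 was the highest and heat stress replicate 1 the lowest, with the other libraries mixed between them. The means were 29.6 ± 4.55 and 27.1 ± 2.74 (SD, n = 3 each). The log2 fold change was -0.12 with a standard error of 0.14, a 95% interval from -0.44 to 0.20 and adjusted p = 0.645 by edgeR, and without control replicate 2 it was 0.0014. With the correction for transcript length and GC content it was -0.28. An antisense gene, Gm45346, shares 896 exon bases with Bdnf.

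Ntf3 encodes neurotrophin-3 and lies on the minus strand at chr6:126101412-126166910. It was near the lower end of what these libraries measure, with 13, 33 and 20 raw counts in control brain and 16, 29 and 22 after heat stress. Its log2 fold change was 0.22 with a standard error of 0.44 (adjusted p = 0.806 by edgeR). Without control replicate 1 it was -0.13 and without control replicate 2 it was 0.72, so these data give Ntf3 no direction. Nrn1 encodes neuritin, a surface protein that promotes neurite growth and is induced by activity and neurotrophins. It lies on the minus strand at chr13:36725361-36735131, where Fars2 on the other strand shares 501 exon bases. Its normalized counts were 211, 218 and 173 in control and 179, 213 and 175 after heat stress, values that overlap almost completely. Nrn1 had a log2 fold change of -0.09 with a standard error of 0.14 (adjusted p = 0.746 by edgeR). Corrected for transcript length and GC content, it was -0.26.

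All 8 members were tested in brain. None passed at an adjusted p under 0.05 by edgeR, against 0% of all genes tested. By DESeq2 1, Vgf, passed, against 7.56% of the 7987 genes for which it returned an adjusted p. At an unadjusted p under 0.05 by edgeR, 2 of 8 were lower, Vgf and Sort1, against a background of 10.0%, and none was higher. The groups did not overlap in 3 of 8, all with heat stress lower, against 24.9% of all genes tested in either direction. The log2 fold change was below 0 in 6 of 8, against 50.3% of all genes, and the median over the members was -0.18 against -0.003 over all genes. Counts of 8 genes are small, and these shares are given as a description of the members.

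**Figure D2:**
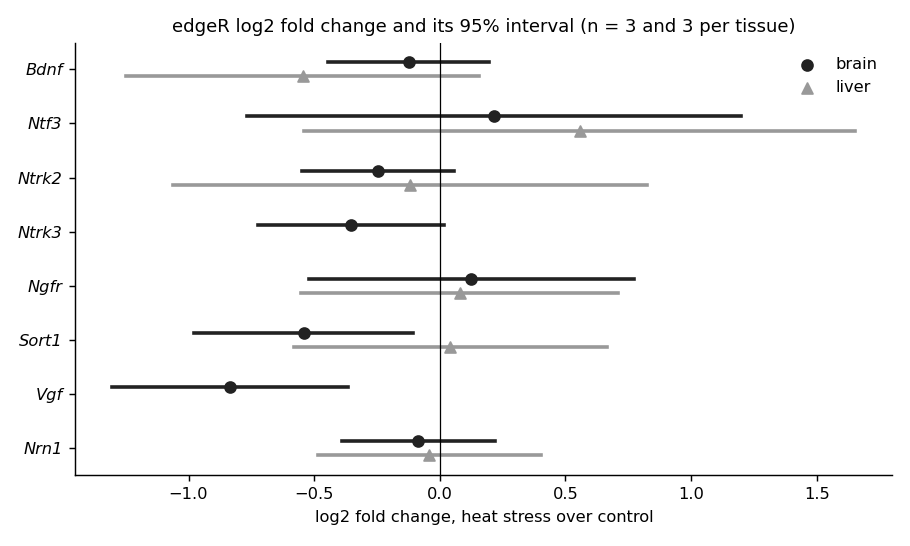
Log2 fold change of heat stress over control (edgeR, horizontal axis) with its 95% interval for each gene, in brain (black circles) and in liver (grey triangles), from 3 control and 3 heat stress libraries per tissue. In brain the intervals of Vgf and Sort1 lie below 0 and the others include 0, and Vgf and Ntrk3 have no liver point because their liver counts were too low to test.

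Ntf5, the gene of neurotrophin-4, is not a member and was sparse in brain. It had at most 3 counts in any brain library and was not tested.

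Per kilobase of exon, the order of mean levels in control brain was Nrn1 (89.2 CPM per kb), Vgf (63.3), Sort1 (56.1), Ntrk2 (36.8), Bdnf (4.76), Ntrk3 (2.26), Ngfr (1.50) and Ntf3 (1.05). The libraries of Nrn1 and Vgf overlapped, as did those of Vgf and Sort1 and of Ngfr and Ntf3, while the other neighbours were apart. After heat stress Sort1 (38.5 CPM per kb) and Vgf (35.5) were in the reverse order, with overlapping libraries, and Vgf also overlapped Ntrk2 (31.1). Nrn1 still led with 84.1 CPM per kb. The lengths are those of all exons of a gene joined, which can exceed the length of a single transcript.

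**Figure D3:**
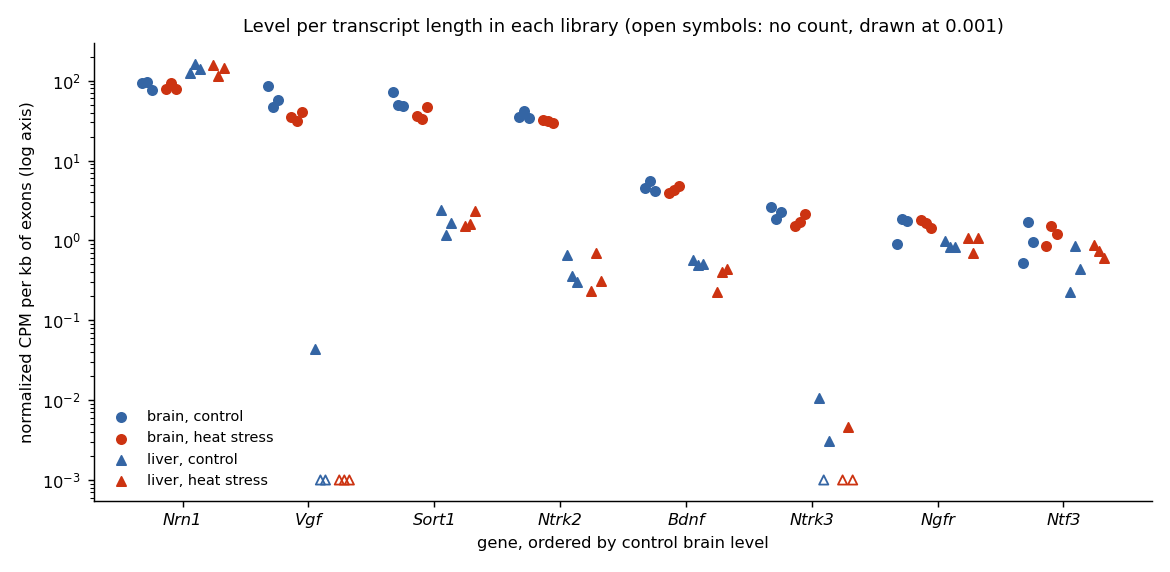
Normalized CPM per kb of joined exons (log axis) in each library, with genes ordered by their mean in control brain, circles for brain and triangles for liver, blue for control and red for heat stress. Nrn1 is the highest of the 8 in both tissues, and Vgf and Ntrk3 have liver libraries with no count, drawn as open symbols at 0.001. Brain and liver were normalized separately, so the heights of circles and triangles do not give the difference between the tissues.

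Liver served as the reference tissue, and there the members were mostly low. In the comparison of control brain with control liver (edgeR over all 12 libraries, adjusted p under 0.05 and a log2 difference past 1), 37.2% of 15824 genes were higher in brain and 27.5% lower. Bdnf (log2 difference 2.06, adjusted p = 1.34e-06), Ntrk2 (5.23, adjusted p = 6.40e-08), Sort1 (3.87, adjusted p = 4.73e-08), Ntrk3 and Vgf were higher in brain. Ntrk3 had 5, 0 and 1 counts in control liver, so its log2 difference of 7.61 is imprecise, and it went from 7.04 without liver control replicate 2 to 9.37 without liver control replicate 1. Vgf had 2, 0 and 0 counts in control liver and none in heat stress liver, which makes it at least 367-fold higher in control brain against a floor of 3 counts per library. Floors cover counting error only. Ntf3 (log2 difference -0.03, adjusted p = 0.951) and Ngfr (-0.37, adjusted p = 0.269) did not differ past the threshold. Ngfr is also a marker of hepatic stellate cells, whose other markers were detected in every liver library and also in every brain library. Which cells the Ngfr counts of liver came from was not tested.

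Nrn1 was the exception among the members. Control liver had 282, 370 and 315 normalized counts and heat stress liver 351, 261 and 327, and these groups overlapped (log2 fold change -0.04). On the scale fitted over both tissues the control liver level was 3.45 times that of control brain, a log2 difference of -1.78 (standard error 0.17, adjusted p = 3.94e-07 by edgeR). Nrn1 had between 3377 and 4711 raw counts in each liver library, so this rests on deep counts, and the reads on the exon bases shared with Fars2 could not be separated in the table.

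Heat stress and control were also compared in liver for the 6 members that could be tested. In the column names 1 control and 2 heat stress liver libraries are marked 2nd, which the sources used here do not explain, and what this marks was not tested. None was called at an unadjusted p under 0.05, against 5.84% of the 12296 genes tested. Bdnf had 54, 38 and 34 raw counts in control liver and 19, 36 and 35 after heat stress, or 3.49, 3.10 and 3.17 against 1.41, 2.51 and 2.76 normalized counts. Normalized values did not overlap, as for 5.73% of all genes in that direction, and the log2 fold change was -0.55 with a standard error of 0.32 (adjusted p = 0.930 by edgeR). It was -0.32 without heat stress replicate 1 and -0.74 without heat stress replicate 3. Ntrk2 in liver was high in control replicate 1 and heat stress replicate 2, with 199 and 192 counts against 60 to 85 in the others. These are the same libraries in which skeletal muscle markers summed to 404 and 2310 CPM against at most 7.26 in the others, and control replicate 1 also had more neuronal marker counts, 37.9 CPM in sum against 16.2 to 20.0 in the others. Their part in the Ntrk2 counts was not tested. The difference of the heat effect between brain and liver had an adjusted p under 0.05 with a log2 difference past 1 for 1 gene of 15824 (0.00632%), and for no member. It was 0.44 ± 0.32 (standard error) for Bdnf and -0.55 ± 0.40 for Sort1, both with adjusted p values of 0.64 by edgeR. With each library left out it ranged from 0.20 (without liver heat stress replicate 1) to 0.61 for Bdnf and from -0.93 (without liver control replicate 1) to -0.30 for Sort1. It is not given for Vgf and Ntrk3, which had almost no liver counts.

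Among all genes tested 10.0% were called in each direction, and the marker lists of brain regions and cell types are read against that share. RNA came from small pieces cut from frozen tissue, the labels do not name the region, and in such pieces fewer cells of a type and less RNA per cell cannot be told apart. Of 12 markers of striatal medium spiny neurons, 10 were higher after heat stress at an unadjusted p under 0.05, and their summed level was 606 to 1024 CPM in control and 986 to 2155 after heat stress. Of 10 choroid plexus markers, 7 were lower, with sums of 1263 to 2516 against 265 to 1139 CPM. Of 9 markers of endothelium and pericytes, 6 were lower, with sums of 325 to 463 against 275 to 340 CPM. Of 10 thalamus and habenula markers, 4 were lower, with sums of 140 to 553 against 102 to 323 CPM and a median log2 fold change of -1.13. The sum of 553 CPM was that of control replicate 3, while control replicates 1 and 2 had 140 and 176 CPM. Heat stress replicate 1, with 323 CPM, stood above both of these. Of 10 markers of oligodendrocytes and precursors, 3 were lower, with sums of 7313 to 12561 against 9022 to 12209 CPM. Of 8 microglia markers, 2 were higher and 1 lower, with sums of 380 to 512 against 426 to 490 CPM. Markers of neurons of any kind had sums of 7500 to 9955 CPM in control, highest in control replicate 1, and 7668 to 8189 CPM after heat stress, with 1 of 10 lower. None of these markers was at 0 in any brain library. Hypothalamus markers summed to 7.95, 165 and 52.9 CPM in control and 275, 74.1 and 13.1 CPM after heat stress. Of these, 6 were tested and 0 called. Markers of meninges and Schwann cells summed to 867 to 1217 CPM in control, with 1 of 8 tested lower. After heat stress they summed to 741, 2357 and 677 CPM.

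Excitatory neurons of cortex and hippocampus are known as a main source of Bdnf. Of their 16 markers 2 were lower at an unadjusted p under 0.05, and 14 had a log2 fold change below 0, with a median of -0.38, against 10.0% lower and 50.3% below 0 among all genes tested. Their summed level was 4129 to 7307 CPM in control, highest in control replicate 1, and 3842 to 5227 CPM after heat stress. None of the 16 was at 0. Each member was also set against the mean log2 CPM of these markers in the same library, an alternative chosen after the data had been seen.

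On that relative scale Vgf was at 1.32, 0.80 and 1.29 log2 units in control and at 0.74, 0.51 and 0.61 after heat stress, still without overlap, and the difference was -0.52 in place of -0.83. Sort1 also kept its groups apart, at 2.33 ± 0.11 in control and 2.08 ± 0.10 (SD, n = 3 each) after heat stress, with a difference of -0.25. Ntrk2 no longer did, and its difference was 0.04 with overlapping libraries. Bdnf stood at 0.16 and Nrn1 at 0.20, each with overlap and with the sign opposite to that of the plain comparison. Ntrk3, at -0.07, overlapped as before, and so did Ngfr at 0.45 and Ntf3 at 0.55, above their plain values of 0.13 and 0.22. Astrocyte markers, which concern Ntrk2, had sums of 4580 to 6381 CPM in control and 4275 to 5424 CPM after heat stress, with 1 of 9 lower, close to the 10.0% of all genes.

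**Figure D4:**
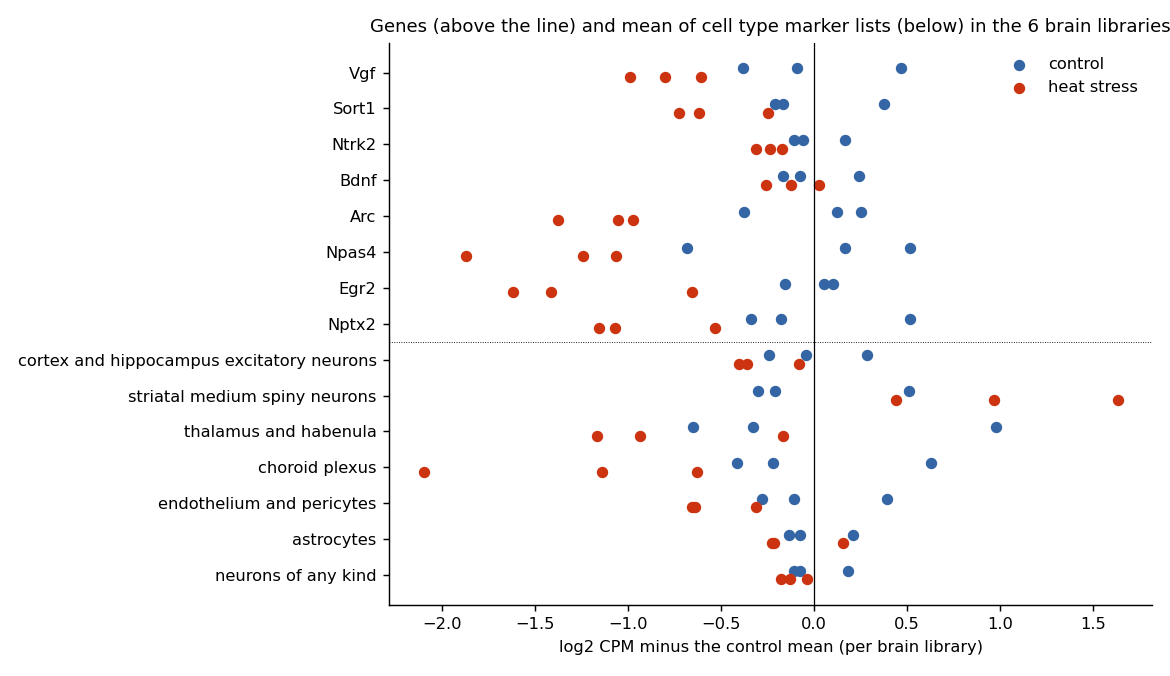
Log2 CPM minus the control mean (horizontal axis) in each control (blue) and heat stress (red) brain library for 8 genes and, below the dotted line, for the mean over each marker list. The genes are Vgf, Sort1, Ntrk2 and Bdnf, and the 4 activity-regulated genes with the smallest unadjusted p by edgeR. Ntrk3, Ngfr, Ntf3 and Nrn1, whose groups overlapped, are not drawn, so the separation seen here follows in part from the choice of genes. The heat stress points of every gene shown except Bdnf lie below all control points, as do those of the choroid plexus and the endothelium and pericyte lists, and the points of the other lists overlap.

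Some of the genes that neuronal activity and Trk signalling induce were lower in the heat stress brains. Of 35 tested, 12 were lower and 2 higher at an unadjusted p under 0.05, 12 did not overlap, 11 of them lower, and 29 had a log2 fold change below 0, with a median of -0.40. Among all genes tested 10.0% were lower and 10.0% higher at that p, 24.9% did not overlap in either direction and 50.3% were below 0. None had an adjusted p under 0.05 by edgeR. This list, like the others, was chosen with earlier results of these data known, so its shares only describe these genes. Arc, which acts in the trafficking of glutamate receptors at synapses, had a log2 fold change of -1.15 and the immediate early transcription factor Npas4 one of -1.45. Egr2, a zinc finger factor of the same early response, was at -1.21, with 9.53, 7.94 and 9.23 normalized counts in control and 2.77, 3.22 and 5.57 after heat stress. Nptx2, a secreted pentraxin that clusters AMPA receptors, was at -0.95. The 2 higher genes, named after their values had been seen, were Tac1 (1.21) and Penk (1.06), which encode neuropeptide precursors and are also on the list of striatal markers.

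Regulators of Bdnf transcription were mixed. Of 23 tested, 5 were lower and 2 higher at an unadjusted p under 0.05, with a median log2 fold change of -0.15, against 10.0% in each direction among all genes tested. Npas4, which binds activity-dependent Bdnf promoters, had 46.1, 36.1 and 20.0 normalized counts in control and 8.68, 15.3 and 13.5 after heat stress, without overlap. The histone acetyltransferases Ep300 (-0.46) and Crebbp (-0.48), which are coactivators of CREB, were lower, and the histone deacetylase Hdac2 (0.28) was higher. Bdnf itself overlapped between the groups, as given above.

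In the list of other neurotrophins and receptors 7 genes were tested. At an unadjusted p under 0.05, 3 were lower and none higher, with a median of -0.49, against 10.0% lower among all genes tested. The lower genes were Sorcs3, with 61.6, 39.3 and 43.4 normalized counts in control and 28.3, 21.9 and 28.4 after heat stress (log2 fold change -0.88, unadjusted p = 0.000991, adjusted p = 0.170 by edgeR), Sorl1 (-0.68) and Sorcs2 (-0.49). These 3 are sorting receptors with the same domain as sortilin, the product of Sort1, and none of their heat stress libraries reached the control range. Sorcs1, a further receptor of that family, named after its values had been seen, overlapped between the groups at -0.15 (adjusted p = 0.561 by edgeR).

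Downstream of the receptors the genes called went both ways, and their share of each list was close to the 20.1% of all genes tested. Of 52 Trk adaptors and signalling genes 8 were lower and 3 higher, with a median of -0.09. Rap1a, a small GTPase of the sustained ERK response, was higher (0.49), and the docking protein Gab1 (-0.43), the ribosomal S6 kinase Rps6ka1 (-0.42) and the Trk scaffold Kidins220 (-0.40) were lower. Of 29 genes of p75 and sortilin signalling 4 were lower and 3 higher, with a median of -0.12. The p75 interactors Bex3 (0.47) and Bex1 (0.54) were higher, while Gga3, an adaptor of sortilin trafficking (-0.33), and the Nogo receptor Rtn4r (-0.62) were lower.

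In the lists of proneurotrophin processing and of other neurotrophic factors the share of genes called was also near the 20.1% of all genes tested. Of 11 genes of proneurotrophin processing 2 were lower and 1 higher. The convertases Pcsk6 (-0.43) and Furin (-0.40), which cut neurotrophin precursors, were the lower genes, and Nenf, encoding the secreted protein neudesin (0.47), was the higher gene. Plat, encoding tissue plasminogen activator, had a log2 fold change of -0.32 with an unadjusted p of 0.0501 and was not counted. Of 26 other neurotrophic factors and receptors 4 were lower and 2 higher. Igf1r, the IGF1 receptor (-0.74), the cytokine co-receptor Il6st (-0.40) and the CNTF receptor Cntfr (-0.34) were lower, and the growth factor Ptn (0.47) was higher. None of the genes named from these lists had an adjusted p under 0.05 by edgeR.

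**Figure D5:**
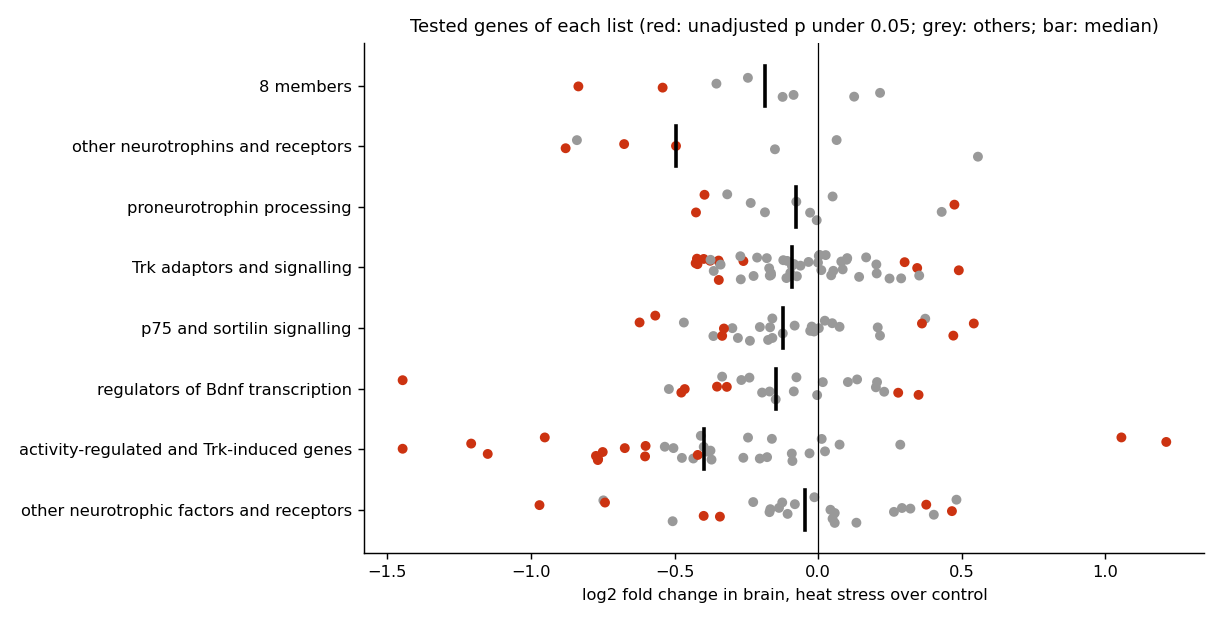
Log2 fold change in brain (horizontal axis) of every tested gene in the 8 members and in each pathway list, with red for an unadjusted p under 0.05 by edgeR, grey for the others and a bar at the median. The medians are -0.18 for the members, -0.49 for the other neurotrophins and receptors and -0.40 for activity-regulated genes, and lie between -0.15 and -0.05 for the other lists.

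The genes whose pattern over the 6 brain libraries was most like that of a member were sought among 14805 genes by Pearson's r of log2 CPM. For Bdnf these were Alg10b (0.991), Cdhr3 (0.984), Tmc8 (0.975), 9530059O14Rik (0.974) and Gzmm (0.962). For Vgf they were Zer1 (0.998), Zc3h13 (0.998), Nbr1 (0.998), Hspa12a (0.997) and Brap (0.996). With 6 libraries and this many genes, high values of r can arise without any link. Libraries of a group also share their treatment, and sums of region markers differed between libraries, so these are descriptions only.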

How the data were processed

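The authors deposited raw read counts per gene symbol for the 12 stranded, poly(A)-selected libraries. The submitters' processing notes name FastQC 0.11.9, Trimmomatic 0.39, HISAT2 2.2.1 on mm10 and featureCounts of Subread 2.0.1, while the methods also describe Tophat2 with HTSeq. Annotation release and strand setting of the counting are not given in the sources used here. Tables of the authors' own DESeq2 comparisons (mean, log2 fold change, standard error, statistic and p-values) were not used. Columns of single libraries left unused numbered 0.

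Brain and liver were each fitted across all genes with edgeR 4.0.16 in R 4.3.3, with TMM normalization, filterByExpr (minimum count 10, minimum total 15), robust quasi-likelihood and Benjamini-Hochberg adjustment. A further fit of all 12 libraries gave the tissue difference and the difference of heat effects. DESeq2 1.42.0 was an alternative. A standard error is the size of the log2 fold change divided by the root of its F statistic. The procedures were tested on simulated data. Log2 CPM used a prior count of 2. Gene models were GENCODE M21 on mm10, and 24366 symbols had a length and GC content for a loess correction (span 0.4). Replicates differed by more than sampling noise.

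Named genes were all members, Ntf5, up to 4 genes with the smallest p of each pathway list, and the 5 genes most correlated with Bdnf and with Vgf. Some genes that the rule names are not reported here. The members and lists were chosen with earlier results of these data known. Alternatives were other normalizations and filters, DESeq2, all libraries in a single fit, a replicate block, the length and GC correction, each library left out, and marker-relative levels.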

Additional observations from a re-analysis of the deposited data

How the results depend on the processing

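The log2 values of Vgf, Sort1 and Ntrk3 in brain stayed below 0 under every alternative. No fit gave them an adjusted p under 0.05, except DESeq2 on the brain libraries for Vgf (0.0113). At an unadjusted p under 0.05 by edgeR, Sort1 was called in 3 of the 6 fits that left out a library. Relative to the cortex and hippocampus markers, Ntrk3 shrank to -0.07. No cause of the changes that follow was tested. In brain, 10 genes were past the threshold (adjusted p under 0.05, log2 fold change past 1) with DESeq2 and 7 with DESeq2 on all 12 libraries, against 0, and genes at an unadjusted p under 0.05 numbered 1874 with the replicate block and length and GC correction, 1694 (DESeq2) and 1445 (edgeR) where all libraries shared a fit, and 1655 to 4027 with each library left out. Members called at an unadjusted p numbered 1 with the replicate block and the length and GC correction together, 1 with edgeR on all libraries, and 1 to 3 with each library left out. At an adjusted p, 1 member of 8 was called with DESeq2 on the brain libraries, against 7.56% of the 7987 genes for which it returned an adjusted p. In liver, the genes past the threshold were 2 with upper quartile factors, 8 without a filter, 1 with the replicate block, 15 with the length and GC correction, 41 and 71 with DESeq2 on liver and on all libraries, 13 with edgeR on all libraries, and 0 to 24 with each library left out (24 without control replicate 1). Unadjusted liver calls were 321 with the replicate block, 1086 with the length and GC correction, 1564 and 1388 with DESeq2 and edgeR on all libraries, and 414 to 1614 with each left out. For the difference between tissues, 0 genes passed with RLE factors, without a filter or with the replicate block, 37 with DESeq2, and 0 to 4 with each left out, and unadjusted calls were 855 with the replicate block. Log2 values changed sign for Ngfr in liver (-0.021 with the length and GC correction, -0.055 with the replicate block added), Sort1 in liver (-0.0025 with edgeR on all libraries) and Ntf3 between control tissues (0.023 with RLE factors, 0.032 with DESeq2). Relative to the cortex and hippocampus markers, Bdnf stood at 0.16, Ntrk2 at 0.040 and Nrn1 at 0.20 in brain. With each library left out, brain values ranged from -0.21 to 0.0014 for Bdnf, -0.13 to 0.72 for Ntf3 and -0.15 to 0.30 for Ngfr, and liver values from -0.73 to 0.30 for Ntrk2, -0.041 to 0.26 for Ngfr, -0.15 to 0.074 for Nrn1 and -0.19 to 0.34 for Sort1. The difference of the heat effect ranged from -0.94 to 0.13 for Ntf3, -0.61 to 0.55 for Ntrk2, -0.25 to 0.19 for Ngfr and -0.17 to 0.048 for Nrn1, and the tissue difference of Ntf3 from -0.60 to 0.55. Replicate numbers only name samples: deviations of same-numbered brain libraries correlated at -0.289, 0.19 and -0.2, and of liver libraries at -0.584, -0.509 and -0.0891. With the replicate block Vgf was at -0.80 and Sort1 at -0.53. The block could not be fitted for control brain against control liver, where it is nested in tissue. Counts under about 50 limit Ntf3 in brain.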
